A study of Mus musculus with 36 samples.

Results

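Kruppel-like factors are DNA-binding proteins that end in a block of zinc fingers, and 9 of their genes, *Klf3*, *Klf4*, *Klf5*, *Klf6*, *Klf7*, *Klf10*, *Klf11*, *Klf13* and *Klf15*, were followed here through the differentiation of brown pre-adipocytes. They were taken by name from a list, by no rule on their measured values but with earlier results of these data known. They are 9 of the 55536 genes counted. RNA sequencing data came from 36 libraries of cultured mouse cells. All cells were derived from brown pre-adipocytes in which *Rxra*, the gene of retinoid X receptor alpha (RXRα), had been disrupted with Cas9, and 2 such Rxra-/- clones, named 48 and 66, were used. Into each clone a retrovirus carried mouse *Rxra*, either wild type (*Rxra*WT, labelled WT) or with alanine in place of serine 22 (*Rxra*SA, labelled SA), so that *Rxra*WT cells are re-expressing cells and no library came from cells with an intact *Rxra* locus. Cells were sampled at confluence (day 0), at day 2, after induction with dexamethasone, isobutylmethylxanthine and indomethacin on top of insulin and triiodothyronine, and at day 6, after further culture in insulin and triiodothyronine alone. Each clone, genotype and day had 3 replicates, which gives 12 libraries per day and 6 per genotype and day. Sources differ on whether these replicates were technical or independent, so that standard errors and p-values may measure technical spread only. Clone 48 was sequenced in pool 1 and clone 66 in pool 2, so that clone and pool cannot be told apart, and each clone stands for a single founder cell.

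Total counts ranged from 11351078 to 24349263 per library, with a median of 18338726, and the lowest belonged to *Rxra*SA day 0 replicate 1 of clone 48. *Rxra* was counted in every library, at 1851 to 11489 counts. At each day the range of *Rxra* in *Rxra*WT libraries overlapped that in *Rxra*SA libraries, and the counts do not tell the introduced form from any other transcript of the gene. Adipocyte genes marked the days: the summed level of 8 brown adipocyte markers (*Pparg*, *Adipoq*, *Fabp4*, *Plin1*, *Ucp1*, *Cidea*, *Ppargc1a* and *Prdm16*) had a median of 132 CPM (counts relative to the library total, scaled by the TMM method) at day 0, 2812 at day 2 and 6369 at day 6. Most of the sum at day 6 came from *Fabp4*, *Adipoq*, *Plin1* and *Pparg*, with medians of 3145, 2105, 598 and 515 CPM. *Cidea* and *Prdm16* had medians of 0.519 and 0.150 CPM at day 6, and *Ppargc1a* had 13.6 CPM at day 0 and 22.9 CPM at day 6. *Ucp1*, the defining thermogenic gene of brown fat, was at or near 0 throughout, with at most 5 counts in a library of day 6. The summed level of 5 pre-adipocyte markers (*Pdgfra*, *Pdgfrb*, *Dlk1*, *Ly6a* and *Cd34*) had a median of 350.5 CPM at day 0, 67.5 at day 2 and 85.8 at day 6, with *Dlk1* at 1 count or less in every library. *Ptprc*, *Adgre1*, *Cdh5*, *Kdr*, *Myod1* and *Myf5*, defining markers of macrophages, endothelium and muscle, stayed at 2 counts or fewer in every library. Of the other markers of these 3 lists of 4, *Cd68* had medians of 6.86, 3.80 and 7.91 CPM on the 3 days and *Acta1* 2.19, 0.505 and 7.85 CPM, while *Csf1r*, *Pecam1*, *Tek* and *Myog* had at most 20 counts. The summed level of no list exceeded 11.7 CPM, and the part of these markers in the results between days was not tested. In such bulk samples fewer cells of a type and less RNA per cell cannot be told apart.

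Members of this family recognise GC-rich elements and CACCC boxes, and they differ mainly in the parts outside the zinc fingers, which recruit activators or repressors of transcription. In white fat cells they act in sequence: *Klf4* is an early inducer of *Cebpb*, *Klf5* acts on *Pparg*, *Klf6* represses the pre-adipocyte gene *Dlk1*, and *Klf15* is a late activator of the insulin-responsive glucose transporter *Slc2a4*. *Klf3*, which binds the co-repressor CtBP, and *Klf7* restrain adipogenesis, while *Klf10*, *Klf11* and *Klf13* recruit the Sin3 co-repressor.

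Promoters of 4 members are shown here because their transcripts gave the clearest courses between days, *Klf15* upwards and *Klf6*, *Klf3* and *Klf7* down at day 2 and then up again. They are RefSeq sequences of the mouse build GRCm38.p6, each of 300 bases from 250 before to 50 after the RefSeq start, and windows were found for 7 members (*Klf3*, *Klf4*, *Klf6*, *Klf7*, *Klf11*, *Klf13* and *Klf15*, but not *Klf5* and *Klf10*). They lie at chr6:90462326-90462625 on the plus strand (*Klf15*), chr13:5861239-5861538 on the plus strand (*Klf6*), chr5:64803271-64803570 on the plus strand (*Klf3*) and chr1:64121340-64121639 on the minus strand (*Klf7*). Capitals mark 3 motifs, each searched on both strands. The first is the GC box, which reads GGGCGG or, on the other strand, CCGCCC. The second is the box named after its letters CACCC, which on the other strand reads GGGTG. The last is the E box, with the letters CACGTG on either strand.
Klf15: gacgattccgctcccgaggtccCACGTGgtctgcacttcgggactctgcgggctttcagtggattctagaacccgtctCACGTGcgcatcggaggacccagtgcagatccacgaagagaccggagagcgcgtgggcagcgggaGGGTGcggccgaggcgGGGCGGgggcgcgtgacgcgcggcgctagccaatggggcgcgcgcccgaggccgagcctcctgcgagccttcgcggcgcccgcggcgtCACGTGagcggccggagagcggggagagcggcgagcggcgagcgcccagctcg
Klf6: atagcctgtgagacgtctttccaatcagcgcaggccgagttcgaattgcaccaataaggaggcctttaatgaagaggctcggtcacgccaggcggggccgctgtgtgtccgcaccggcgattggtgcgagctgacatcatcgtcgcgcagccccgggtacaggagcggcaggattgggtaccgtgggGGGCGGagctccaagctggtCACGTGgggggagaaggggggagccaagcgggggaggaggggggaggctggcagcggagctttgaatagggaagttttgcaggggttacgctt
Klf3: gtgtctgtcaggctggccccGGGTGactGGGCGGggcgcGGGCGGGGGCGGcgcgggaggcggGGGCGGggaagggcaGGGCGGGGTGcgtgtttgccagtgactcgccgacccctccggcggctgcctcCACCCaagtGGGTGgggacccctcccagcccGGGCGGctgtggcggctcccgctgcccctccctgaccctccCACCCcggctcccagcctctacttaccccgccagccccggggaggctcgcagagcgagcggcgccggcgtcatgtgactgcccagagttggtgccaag
Klf7: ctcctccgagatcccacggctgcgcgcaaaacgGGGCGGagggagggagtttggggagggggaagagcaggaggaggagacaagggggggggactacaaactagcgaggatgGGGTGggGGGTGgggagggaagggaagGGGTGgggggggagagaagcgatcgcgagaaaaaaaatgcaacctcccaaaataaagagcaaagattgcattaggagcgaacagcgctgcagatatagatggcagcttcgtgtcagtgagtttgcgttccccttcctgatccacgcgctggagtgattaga

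A GC box was present in 7 of the 7 windows, where 35.7% of all 32851 promoter windows of this length held one. The E box was present in 4 (*Klf4*, *Klf6*, *Klf11* and *Klf15*), against 7.15% of all windows, and *Klf15* held 3 of them. A CACCC box was present in 4 windows (*Klf3*, *Klf7*, *Klf13* and *Klf15*), where 57.5% of all windows had one, and in *Klf3* and *Klf13* 1 base was shared by a GC box and a CACCC box. CCAAT or its complement ATTGG was found in *Klf6*, *Klf11*, *Klf13* and *Klf15* (37.4% of all windows). Neither the cyclic AMP response element TGACGTCA (1.79% of all windows) nor the glucocorticoid receptor motif AGAACA or its complement TGTTCT (19% of all windows) occurred in the 7 windows, which concerns these letters in these windows alone. The windows of the members were 58.3% to 77.7% G and C, where the median over all windows was 52.7%.

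The change of the 9 genes from day to day was followed by edgeR's quasi-likelihood test, averaged over genotypes, with adjusted p-values over all 16723 genes tested. The 12 libraries of a day came from 2 clones, and those of the same clone and replicate number deviated together. They are thus not 12 independent units, and the test did not account for the shared numbers. All 9 members passed the filter on low counts. Between day 0 and day 2, 2 members rose (*Klf15* and *Klf10*) and 3 fell (*Klf3*, *Klf6* and *Klf7*), where 35.8% of all genes tested were higher and 37.5% lower. Between day 2 and day 6, 6 rose (*Klf3*, *Klf6*, *Klf7*, *Klf10*, *Klf13* and *Klf15*) and 1 fell (*Klf5*), where 31.9% of all genes were higher and 30.1% lower. From day 0 to day 6, 3 rose (*Klf10*, *Klf13* and *Klf15*) and 4 fell (*Klf3*, *Klf5*, *Klf6* and *Klf7*), where 32.9% were higher and 35.4% lower. The median log2 fold change of the 9 was -0.16, 0.61 and -0.36 in these comparisons, beside -0.02, 0.01 and -0.03 over all genes tested. The 12 libraries of a day did not overlap with those of the other day for 3 members at day 2 against day 0 (*Klf3*, *Klf6* and *Klf15*), 2 at day 6 against day 2 (*Klf6* and *Klf15*) and 1 at day 6 against day 0 (*Klf15*), where 27.7%, 17.1% and 23.2% of all genes tested had no overlap.

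**Figure D1:**
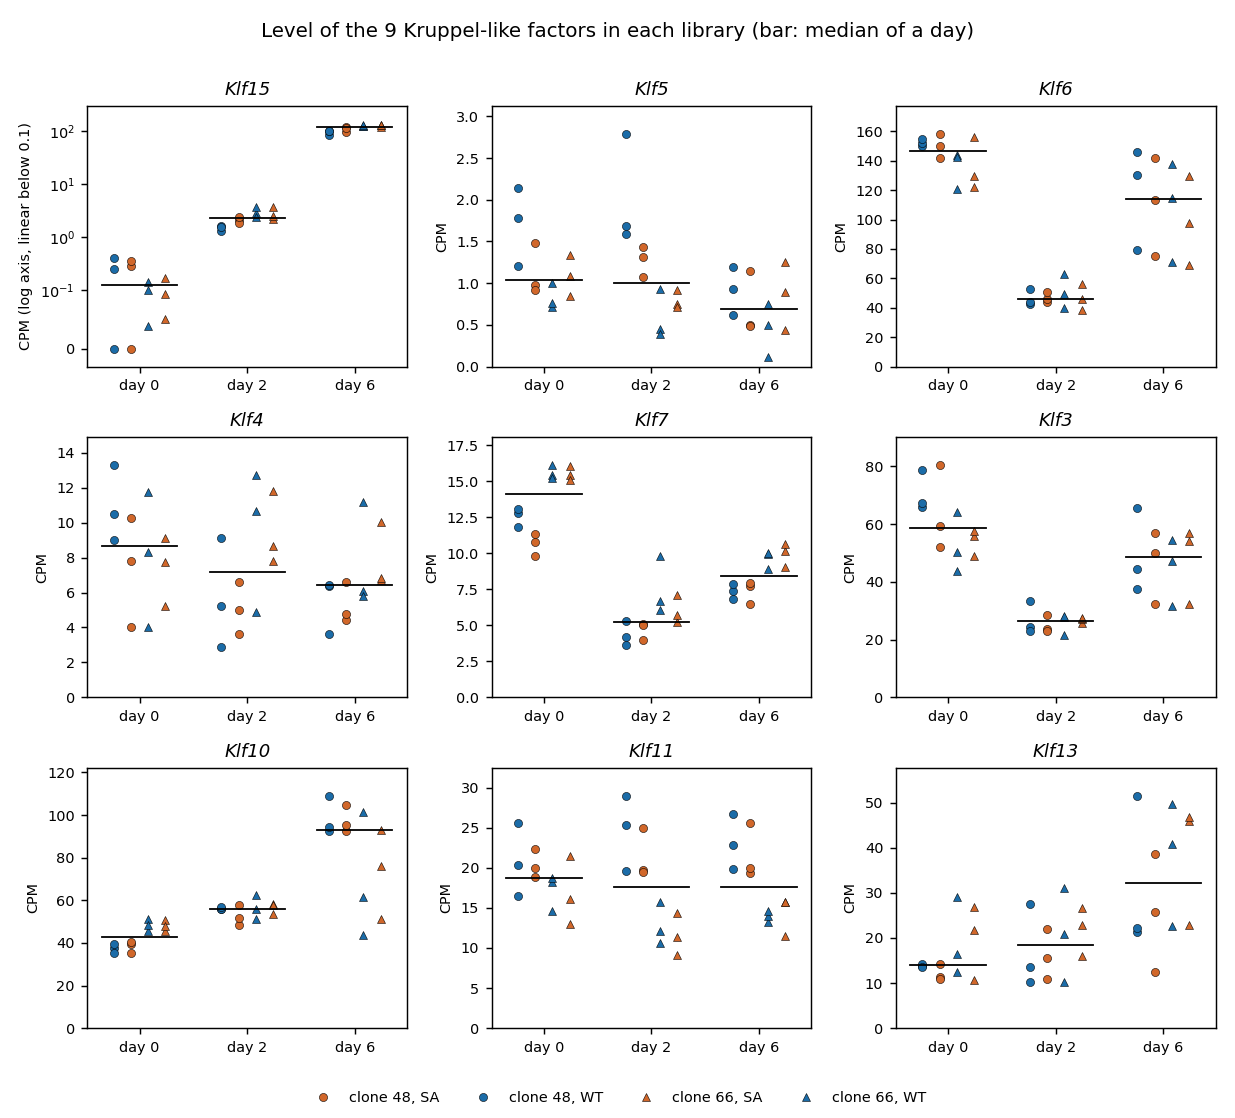
Level of each of the 9 Kruppel-like factors in CPM (vertical axis) in the 36 libraries at days 0, 2 and 6, with circles for clone 48, triangles for clone 66, blue for *Rxra*WT, orange for *Rxra*SA and a bar at the median of the 12 libraries of a day. The *Klf15* panel has a log axis that is linear below 0.1 CPM, and its day 6 libraries, at 85.6 to 133.5 CPM, lie above all others, while *Klf6*, *Klf3* and *Klf7* have their lowest medians at day 2.

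*Klf15*, an activator of *Slc2a4* and of amino acid breakdown genes, was almost absent before induction and had the highest median of the 9 per exon length at day 6. At day 0 it had 0 to 8 counts per library (median 0.123 CPM), and 7 of the 12 libraries had 3 counts or fewer. At day 2 its level was 1.31 to 3.75 CPM with a median of 2.30, from 19 to 73 counts, and at day 6 it was 85.6 to 133.5 CPM with a median of 119, from 1377 to 2943 counts. Libraries of the 3 days did not overlap in either step. The log2 fold change was 3.81 ± 0.25 (SE, n = 12 libraries per day) at day 2 against day 0 (adjusted p = 8.2e-16, 14.1-fold), and 5.62 ± 0.17 at day 6 against day 2 (adjusted p = 3.2e-24, 49.3-fold). From day 0 to day 6 it was 9.44 ± 0.23, a ratio that rests on a total of 38 counts in the 12 libraries of day 0. In each clone fitted alone the rise was called in both steps, at 2.88 and 5.87 in clone 48 and at 4.81 and 5.47 in clone 66.

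*Klf6*, *Klf7* and *Klf3* fell at day 2 and rose again by day 6, without reaching their day 0 levels. *Klf6*, whose product represses *Dlk1*, held 121 to 158 CPM (median 147) at day 0, 38.8 to 63.0 CPM (median 45.9) at day 2 and 69.2 to 146 CPM (median 114) at day 6. Every library of day 2 lay below every library of the other days, while days 0 and 6 overlapped. Its log2 fold change was -1.59 ± 0.12 (SE) at day 2 against day 0 (adjusted p = 1.9e-14), 1.18 ± 0.11 at day 6 against day 2 (adjusted p = 5.0e-11) and -0.40 ± 0.11 at day 6 against day 0 (adjusted p = 0.0021). *Klf7*, an inhibitor of fat cell formation in white adipose cells, held 9.81 to 16.2 CPM (median 14.1), 3.66 to 9.81 CPM (median 5.26) and 6.50 to 10.7 CPM (median 8.43) on the 3 days. It fell by 1.27 on the log2 scale (SE 0.08, adjusted p = 1.3e-15) and then rose by 0.61 (SE 0.08, adjusted p = 9.0e-08), and the highest day 2 library of clone 66 was level with the lowest day 0 library of clone 48. *Klf3*, the CtBP-binding repressor of *Cebpa*, held 43.9 to 80.6 CPM (median 58.6), 21.6 to 33.4 CPM (median 26.6) and 31.8 to 65.6 CPM (median 48.7). It fell by 1.20 on the log2 scale (SE 0.12, adjusted p = 3.2e-11), with no overlap, and then rose by 0.84 (SE 0.12, adjusted p = 1.1e-07), with overlap. At day 6 against day 0 the log2 fold change was -0.66 ± 0.08 for *Klf7* (adjusted p = 8.7e-09) and -0.36 ± 0.11 for *Klf3* (adjusted p = 0.0067). In clone 66 alone the difference between days 6 and 0 was not called for *Klf3* (-0.18, adjusted p = 0.34) or *Klf6* (-0.37, adjusted p = 0.079). Exons of *Klf3* overlap the antisense gene *Gm20033* and those of *Klf7* the antisense genes *Gm13748* and *Gm26649*, and reads were counted without use of strand, so that their values are uncertain to that extent.

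Of the Sin3-binding repressors, *Klf10* and *Klf13* ended higher and *Klf11* did not pass the test. *Klf10*, the TGF-beta-inducible early gene, held 35.1 to 51.4 CPM (median 42.9) at day 0, 48.5 to 62.7 CPM (median 56.0) at day 2 and 43.6 to 109 CPM (median 92.9) at day 6. The ranges of neighbouring days overlapped, with the widest spread at day 6. Its log2 fold change was 0.37 ± 0.11 (SE) at day 2 against day 0 (adjusted p = 0.0045), 0.61 ± 0.11 at day 6 against day 2 (adjusted p = 2.0e-05) and 0.97 ± 0.11 at day 6 against day 0 (adjusted p = 3.1e-09). The step to day 2 was not called when counts were scaled by library size alone (0.10, adjusted p = 0.44), a scaling that moved the median of all genes by -0.26 in that comparison, nor in clone 66 alone (0.26, adjusted p = 0.19), where the step to day 6 was not called either (0.33, adjusted p = 0.11).

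*Klf13*, which also recruits the Sin3 co-repressor, held 10.7 to 29.1 CPM (median 14.0) at day 0, 10.2 to 31.1 CPM (median 18.4) at day 2 and 12.6 to 51.6 CPM (median 32.2) at day 6. The libraries of any 2 days overlapped. It rose by 0.81 ± 0.21 between days 2 and 6 (adjusted p = 0.0012), and by 1.04 ± 0.21 from day 0 to day 6 (adjusted p = 5.6e-05), on the log2 scale, while at day 2 against day 0 the value was 0.23 ± 0.21 (adjusted p = 0.33). *Klf11* held 13.0 to 25.6 CPM (median 18.8), 9.12 to 29.0 CPM (median 17.6) and 11.5 to 26.7 CPM (median 17.5). Its log2 fold changes of -0.16 at day 2 against day 0 (95% interval -0.39 to 0.07) and -0.08 at day 6 against day 0 (-0.31 to 0.14) did not pass the test, but with library size alone they were -0.42 (adjusted p = 0.0014) and -0.28 (adjusted p = 0.029). The first was also called in clone 66 alone (-0.45, adjusted p = 0.016) and without number 3 of clone 48 (-0.32, adjusted p = 0.0077).

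Of the early activators, *Klf4* was not called between days and *Klf5* was lower at day 6. No library was taken between days 0 and 2, so that a passing change within that time would not be seen. *Klf4*, an inducer of *Cebpb*, held 4.02 to 13.3 CPM (median 8.66) at day 0, 2.86 to 12.8 CPM (median 7.21) at day 2 and 3.61 to 11.2 CPM (median 6.41) at day 6. The libraries of the 3 days overlapped widely, and no comparison was called. The 95% intervals of its log2 fold change ran from -0.66 to 0.20 at day 2 against day 0 and from -0.83 to 0.04 at day 6 against day 0. With library size alone both were called, at -0.49 (adjusted p = 0.035) and -0.58 (adjusted p = 0.014), as in clone 48 alone, at -0.75 (adjusted p = 0.026) and -0.74 (adjusted p = 0.033). The second was called without number 1 (adjusted p = 0.027) or 2 (0.048) of clone 66 too. *Klf5*, an activator of *Pparg*, was near the limit of these depths, with 2 to 45 counts per library. It held 0.713 to 2.14 CPM (median 1.04), 0.387 to 2.79 CPM (median 1.00) and 0.113 to 1.25 CPM (median 0.686). Its log2 fold change was -0.09 ± 0.23 (SE) at day 2 against day 0 (adjusted p = 0.73), -0.59 ± 0.24 at day 6 against day 2 (adjusted p = 0.035) and -0.68 ± 0.24 at day 6 against day 0 (adjusted p = 0.012). The call between days 2 and 6 was lost with library size alone (-0.52, adjusted p = 0.057) and with no clone term (-0.65, adjusted p = 0.052). It was also lost without any of the replicate numbers of clone 48 (adjusted p = 0.10 to 0.14) or number 1 of clone 66 (0.064), and that between days 0 and 6 without number 1 of clone 48 (0.055). In clone 66 alone neither was called, at -0.12 (adjusted p = 0.80) and -0.57 (adjusted p = 0.14).

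**Figure D2:**
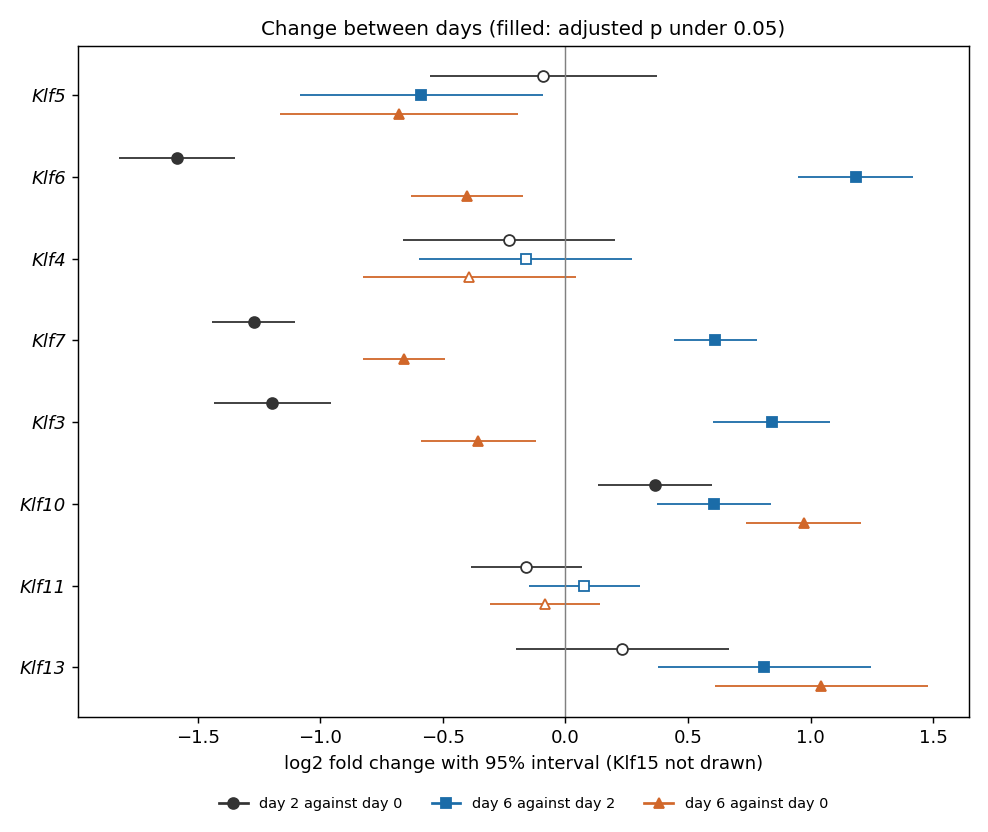
Log2 fold change (horizontal axis) of 8 members for day 2 against day 0 (black circles), day 6 against day 2 (blue squares) and day 6 against day 0 (orange triangles), with lines for 95% intervals, filled where the adjusted p was under 0.05 and open otherwise. *Klf15* is not drawn, since its values of 3.81, 5.62 and 9.44 exceed the axis. *Klf6*, *Klf7* and *Klf3* lie left of 0 at day 2 against day 0 and right of 0 at day 6 against day 2.

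For comparison between genes, levels were divided by the exon length of each gene (CPM per kilobase). At day 0, *Klf6* was the highest (median 33.5 CPM per kilobase, 55.6% of the sum over the 9 members), followed by *Klf10* (10.3), *Klf3* (5.22), *Klf11* (4.33), *Klf4* (2.84), *Klf13* (1.87), *Klf7* (1.73), *Klf5* (0.200) and *Klf15* (0.0439). *Klf6*, *Klf10* and *Klf7* did not overlap with the next in this order, and from *Klf3* down to *Klf7*, and for *Klf5* and *Klf15*, neighbours overlapped. At day 2, *Klf10* (13.4) and *Klf6* (10.4) led with overlapping ranges, above *Klf11* (4.06), *Klf13* (2.45), *Klf4* (2.36), *Klf3* (2.36), *Klf15* (0.822), *Klf7* (0.647) and *Klf5* (0.193). At day 6, *Klf15* (42.8, 40.3% of the sum) came before *Klf6* (25.9) and *Klf10* (22.2), all overlapping their neighbour, and these 3 lay above *Klf3* (4.33), *Klf13* (4.28), *Klf11* (4.04), *Klf4* (2.10), *Klf7* (1.04) and *Klf5* (0.132). The sum over the 9 members was 57.3 to 64.1 CPM per kilobase at day 0, 32.5 to 46.5 at day 2 and 96.7 to 113 at day 6, without overlap between days.

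Whether the clones differed was tested at each day in a model with a term for each clone, genotype and day. Of the 9 members, 1 was called at day 0, 5 at day 2 and 3 at day 6, where 23.7%, 30% and 26.2% of all genes tested were called. A replicate block, with terms for the numbers within each clone, compared the clones at the fitted level of number 1 and not over all numbers. Its counts were 3, 4 and 2, with *Klf3* (-0.37, adjusted p = 0.044) and *Klf10* (0.49, adjusted p = 0.020) called at day 0. These counts do not test the average difference between clones. *Klf7* was called at all 3 days, with a log2 fold change of clone 66 against clone 48 of 0.43 ± 0.11 (SE, adjusted p = 0.0046), 0.57 ± 0.12 (adjusted p = 0.00040) and 0.41 ± 0.11 (adjusted p = 0.0078). Its libraries of clone 66 (15.1 to 16.2 CPM) lay above those of clone 48 (9.81 to 13.1 CPM) at day 0 and also at day 6 (8.92 to 10.7 against 6.50 to 7.95 CPM), but overlapped at day 2. The calls at days 0 and 6 were lost without the filter on low counts (adjusted p = 0.066 and 0.077), and that at day 6 without number 1 of clone 48 (0.082) or number 2 of clone 66 (0.073).

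*Klf11* was lower in clone 66 after induction. At day 2 it held 9.12 to 15.8 CPM in clone 66 and 19.5 to 29.0 CPM in clone 48, and at day 6 11.5 to 15.7 CPM and 19.4 to 26.7 CPM, with no overlap at either day. The log2 fold change was -0.91 ± 0.15 (adjusted p = 1.6e-05) and -0.66 ± 0.15 (adjusted p = 0.00089), and at day 0, where the clones overlapped, -0.27 ± 0.14 (adjusted p = 0.19). The difference between clones in the change from day 0 to day 2 was -0.64 ± 0.20 (adjusted p = 0.057), and DESeq2 called it (adjusted p = 0.045). *Klf5* was also lower in clone 66 at day 2, at 0.387 to 0.927 CPM against 1.08 to 2.79 CPM in clone 48 (log2 fold change -1.23 ± 0.29, adjusted p = 0.0017). *Klf4* was called higher in clone 66 at day 2, at 4.87 to 12.8 CPM against 2.86 to 9.11 CPM (0.80 ± 0.29, adjusted p = 0.037). With the replicate block, which compared the clones at number 1, it was not called (0.65, adjusted p = 0.11). It was not called either without number 1 (adjusted p = 0.20) or 2 (0.14) of clone 48 or number 2 (0.11) or 3 (0.22) of clone 66.

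*Klf15* rose more in clone 66 from day 0 to day 2. In clone 48 it went from 0 to 8 counts to 19 to 44 counts, and in clone 66 from 1 to 4 counts to 40 to 73 counts. The difference between clones in this change, on the log2 scale, was 1.87 ± 0.52 (SE, adjusted p = 0.024), and no other member was called in that comparison by this test, where 6.84% of all genes tested were called. With the replicate block 3 were called, *Klf15*, *Klf4* (1.08, adjusted p = 0.017) and *Klf11* (-0.63, adjusted p = 0.038). The call rested on few counts and was lost without number 3 of clone 48 (1.34, adjusted p = 0.30) and without any of numbers 1, 2 and 3 of clone 66 (1.69 to 2.15, adjusted p = 0.055 to 0.12). At day 2 itself *Klf15* was higher in clone 66, at 2.17 to 3.75 CPM against 1.31 to 2.43 CPM (0.68 ± 0.21, adjusted p = 0.015), a call lost without number 2 of clone 48 (adjusted p = 0.057) or number 3 of clone 66 (0.18). At day 6 the values were 119.1 to 133.5 CPM against 85.6 to 119.9 CPM (0.31 ± 0.17, adjusted p = 0.18), and DESeq2 called this difference (adjusted p = 0.010).

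*Klf10* rose less in clone 66 from day 0 to day 6. Clone 48 went from 35.1 to 40.3 CPM to 92.4 to 109 CPM, and clone 66 from 45.4 to 51.4 CPM to 43.6 to 101 CPM. The clones thus did not overlap at day 0, and clone 66 overlapped with its own day 0 at day 6. Its day 6 libraries differed by number, at 93.1 to 101 CPM with number 1, 43.6 to 51.0 CPM with number 2 and 61.7 to 76.0 CPM with number 3. Those with number 1 lay within the range of clone 48. The difference between clones in this change was -0.81 ± 0.19 (adjusted p = 0.0096), where 3.85% of all genes tested were called, and it was lost without number 1 (adjusted p = 0.10), 2 (0.0501) or 3 (0.062) of clone 48 or number 3 of clone 66 (0.084). At day 6 itself the difference was -0.46 ± 0.13 (adjusted p = 0.0096). It was not called without number 1 of clone 48 (adjusted p = 0.088) or number 2 (0.12) or 3 (0.063) of clone 66. With the replicate block, which compared the clones at number 1, it was not called either (-0.36, adjusted p = 0.068). From day 2 to day 6 no member differed between clones in edgeR's quasi-likelihood test, 1 had an unadjusted p under 0.05 and DESeq2 called 0, where 6.18% of all genes tested were called. That 1 was *Klf10* (-0.52), which was called with the replicate block (-0.56, adjusted p = 0.025) and without number 1 of clone 66 (-0.84, adjusted p = 0.0013). The summed brown adipocyte markers moved with the clone, at 2705 to 4408 CPM in clone 48 and 2193 to 2852 CPM in clone 66 at day 2 and at 6346 to 8942 CPM and 4993 to 6486 CPM at day 6. The summed pre-adipocyte markers were at 33.7 to 80.2 CPM in clone 48 and 66.9 to 103.5 CPM in clone 66 at day 2 and at 42.0 to 110 CPM and 64.3 to 168 CPM at day 6. The part of these markers in the differences between clones was not tested.

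**Figure D3:**
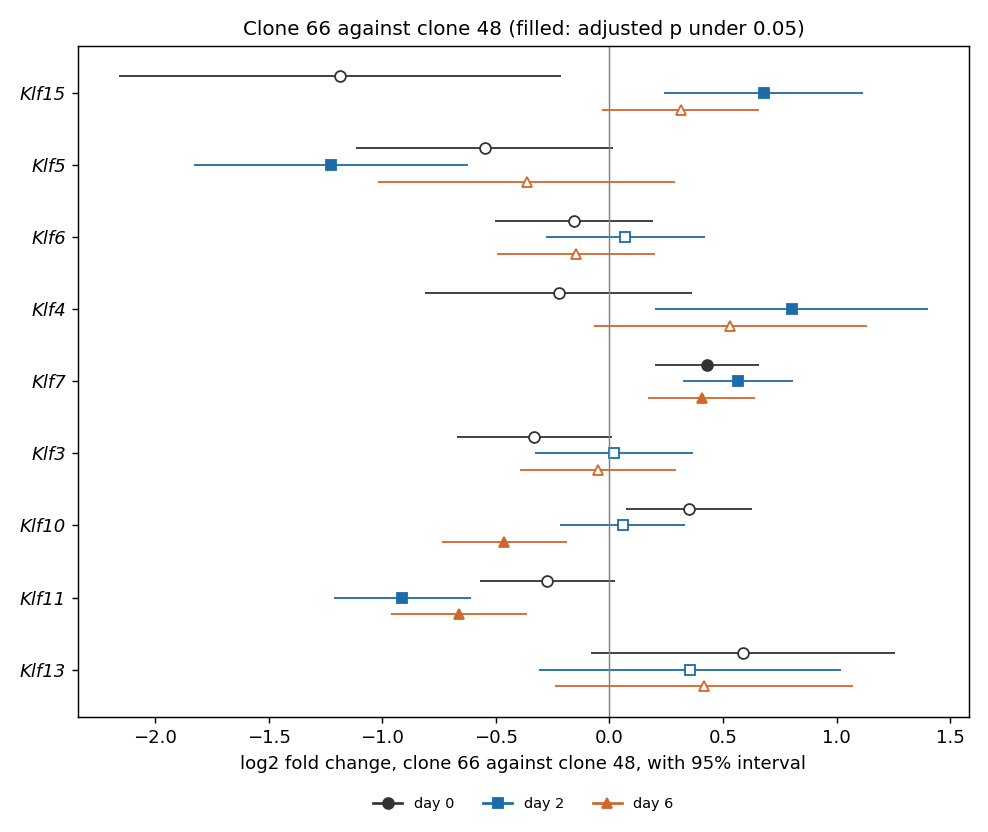
Log2 fold change of clone 66 against clone 48 (horizontal axis) of the 9 members at day 0 (black circles), day 2 (blue squares) and day 6 (orange triangles), with 95% intervals, filled where the adjusted p was under 0.05. *Klf7* is right of 0 and filled at all 3 days, *Klf11* is left of 0 and filled at days 2 and 6.

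For *Klf6*, *Klf3* and *Klf13* the spread at day 6 followed the replicate number of the labels, across clones and genotypes. This pattern was chosen after the values were seen and is given without a test. At day 6 the 4 libraries with number 1 (both clones, both genotypes) held *Klf6* at 129 to 146 CPM, those with number 2 at 97.7 to 131 CPM and those with number 3 at 69.2 to 79.1 CPM. *Klf3* lay the other way, at 31.8 to 37.6 CPM in the libraries with number 1, 44.6 to 54.3 CPM with number 2 and 54.6 to 65.6 CPM with number 3. *Klf13* held 12.6 to 22.8 CPM, 22.2 to 46.0 CPM and 38.7 to 51.6 CPM in the same sets. The sets of *Klf3* did not overlap, and for *Klf6* and *Klf13* the libraries with number 3 were apart from those with number 1. At day 2 *Klf13* held 10.2 to 16.0 CPM with number 1 and 22.1 to 31.1 CPM with number 3. *Klf3* held 21.6 to 25.9 CPM with number 1 and 27.5 to 33.4 CPM with number 3 at that day. The order of *Klf6* at day 2 was not that of day 6. It was highest with number 3, at 50.8 to 63.0 CPM, against 42.7 to 49.4 CPM with number 1 and 38.8 to 45.7 CPM with number 2. The sets of *Klf15* overlapped at day 6, at 85.6 to 127 CPM, 103 to 131 CPM and 103 to 133.5 CPM. Those of *Klf7* did so too, at 6.50 to 10.1 CPM, 7.39 to 10.7 CPM and 7.88 to 9.05 CPM, and *Klf4*, *Klf5* and *Klf11* overlapped as well. For *Klf10* number 1, at 93.1 to 109 CPM, lay above number 2, at 43.6 to 92.6 CPM. Both overlapped with number 3, at 61.7 to 95.2 CPM. At day 0 the sets of *Klf3* overlapped, at 48.9 to 65.8 CPM, 43.9 to 67.4 CPM and 57.8 to 80.6 CPM, as did those of *Klf6*, at 144 to 156 CPM, 122 to 158 CPM and 121 to 155 CPM. The summed pre-adipocyte markers of the same libraries at day 6 were 42.0 to 70.5 CPM with number 1, 48.7 to 146 CPM with number 2 and 101 to 168 CPM with number 3, and the brown adipocyte markers 6384 to 8709.6, 6154 to 8942 and 4993 to 6354 CPM. Their part in the spread was not tested.

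**Figure D4:**
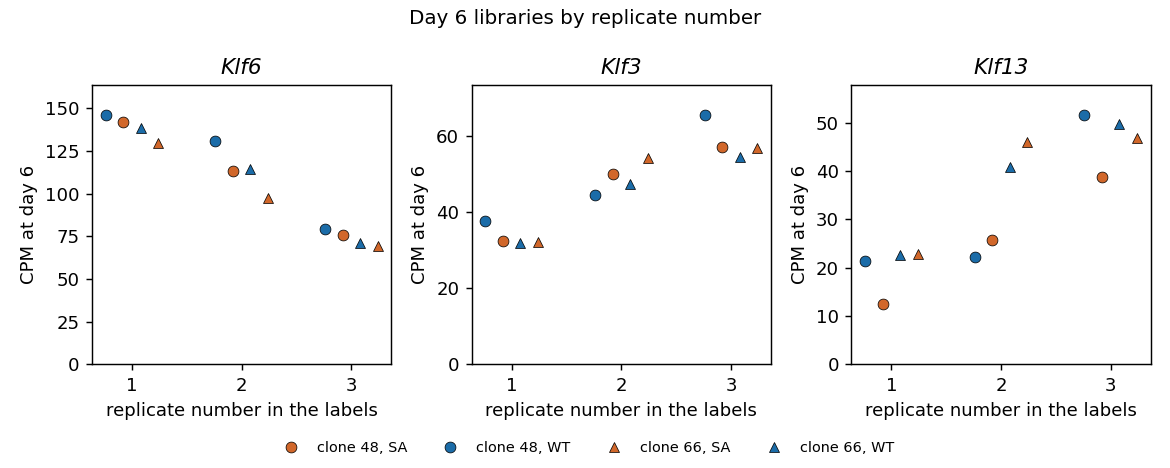
Level at day 6 in CPM (vertical axis) of *Klf6*, *Klf3* and *Klf13* by the replicate number in the labels (horizontal axis), with circles for clone 48, triangles for clone 66, blue for *Rxra*WT and orange for *Rxra*SA. The 4 libraries with number 3 lie at 69.2 to 79.1 CPM for *Klf6*, below the others, and at 54.6 to 65.6 CPM for *Klf3*, above the others.

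Whether alanine at residue 22 of RXRα changed the level of these factors was asked at each day. *Rxra*SA and *Rxra*WT libraries of the same clone, day and number deviated together, and were treated as pairs in an alternative. The main test and all intervals given for genotypes did not use these pairs. They thus include the spread between replicate numbers that both genotypes share, and can miss differences smaller than that spread. None of the 9 members was called at day 0, 2 or 6 in edgeR's quasi-likelihood test, none had an unadjusted p under 0.05, and DESeq2 also called 0. The shares of all genes tested that were called were 0, 0 and 0%, with 139, 162 and 125 genes at an unadjusted p under 0.05. These are fewer than chance alone would give, so the test without pairs was conservative. In the paired fit, with the replicate block within each day, the count of members called was 0 at each day as well. *Klf15* held 85.6 to 133.5 CPM (median 115) in *Rxra*WT and 95.8 to 131 CPM (median 119) in *Rxra*SA at day 6, and 1.31 to 3.65 CPM (median 2.03) and 1.87 to 3.75 CPM (median 2.30) at day 2. Ranges overlapped at both days, and the log2 fold change was 0.08 (95% interval -0.31 to 0.47) and 0.16 (-0.32 to 0.65). *Klf6* was lower in *Rxra*SA in 6 of 6 pairs at day 6, with means of 104 ± 29.0 CPM (SD, n = 6) in *Rxra*SA and 113 ± 31.5 CPM in *Rxra*WT (log2 fold change -0.12, 95% interval -0.44 to 0.21). *Klf11* was lower in 6 of 6 pairs at day 2, at 16.5 ± 5.95 CPM and 18.8 ± 7.31 CPM (-0.18, 95% interval -0.50 to 0.14), and the adjusted p of both was 1 with and without pairing. Among the 9 members at days 0, 2 and 6, these were the only cases with all 6 pairs on one side. They were picked from all these cases, and the share of all genes with such pairs was not counted, so no genotype difference is read from them. The largest absolute value was that of *Klf4* at day 0 (-0.38 ± 0.30, 95% interval -0.99 to 0.22), which was lower in *Rxra*SA in 4 of 6 pairs. The median log2 fold change of the 9 was -0.06, -0.05 and 0.01 at days 0, 2 and 6, beside -0.0036, -0.0096 and -0.0096 over all genes tested.

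The genotypes also did not differ detectably in how the members changed with time. For the 3 pairs of days 0 members were called in edgeR's test, 0 had an unadjusted p under 0.05 and DESeq2 called 0, where 0, 0 and 0% of all genes tested were called. Of all 16723 genes, 144 (day 2 against day 0), 153 (day 6 against day 2) and 128 (day 6 against day 0) had an unadjusted p under 0.05. That is fewer than chance alone would give, so this test without pairs was conservative and its lack of calls says little about small differences. The values ranged from -0.15 (*Klf5*, day 2 against day 0) to 0.54 (*Klf5*, day 6 against day 2, 95% interval -0.45 to 1.54). A different effect of genotype in the 2 clones was likewise called for 0 members at each day, where 0, 0 and 0% of all genes were called, with the widest value for *Klf5* at day 6 (1.27 ± 0.63). This test did not use pairs either, and 283, 214 and 200 of all genes had an unadjusted p under 0.05 at days 0, 2 and 6. *Klf5* was higher in *Rxra*SA in 0 of 3 pairs of clone 48 at each day, and in clone 66 in 3 of 3 pairs at day 0, 2 of 3 at day 2 and 3 of 3 at day 6. The difference between clones in this effect was 0.98 ± 0.55 at day 0 (95% interval -0.15 to 2.11) and 1.10 ± 0.59 at day 2 (-0.12 to 2.31), and the 3 days had adjusted p-values of 0.98 to 1.

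**Figure D5:**
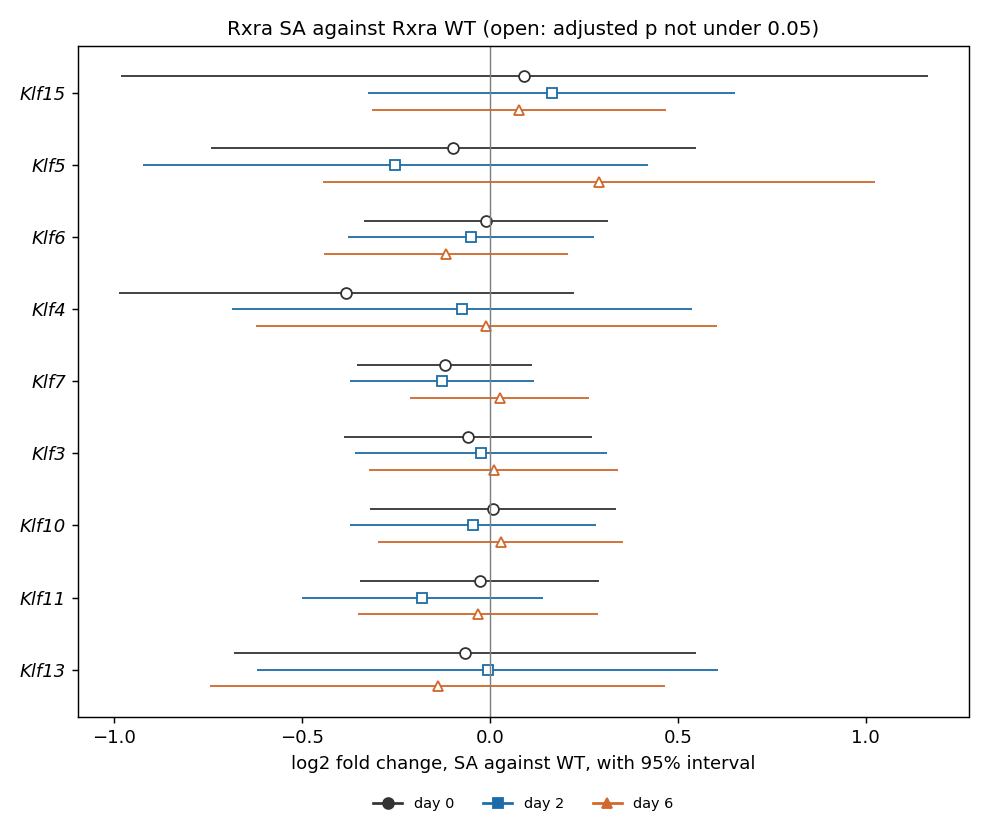
Log2 fold change of *Rxra*SA against *Rxra*WT (horizontal axis) of the 9 members at day 0 (black circles), day 2 (blue squares) and day 6 (orange triangles), with 95% intervals. All symbols are open because no adjusted p was under 0.05, and the values lie between -0.38 and 0.29.

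The rest of the family, 17 further *Klf* and *Sp* genes, was taken as a list. *Klf12*, *Klf14*, *Klf17*, *Sp5*, *Sp6* and *Sp9* had at most 4 counts in any library and were not tested. Of the 11 tested, 3 rose and 5 fell at day 2 against day 0, 4 rose and 1 fell at day 6 against day 2, and 5 rose and 3 fell at day 6 against day 0, where 35.8% and 37.5%, 31.9% and 30.1%, and 32.9% and 35.4% of all genes tested were higher and lower in these comparisons. *Klf9*, an activator of *Pparg* that glucocorticoids induce, went from 23.3 to 63.1 CPM (median 35.8) at day 0 to 85.0 to 162.5 CPM (median 123) at day 2 and 97.4 to 147.9 CPM (median 109.9) at day 6. It rose by 1.72 on the log2 scale at day 2 (SE 0.13, adjusted p = 5.2e-14), with no overlap, and was not called between days 2 and 6 (-0.07, adjusted p = 0.65). *Klf2*, a repressor of *Pparg*, fell and rose again, with a log2 fold change of -1.31 at day 2 (adjusted p = 4.1e-09) and 1.07 from day 2 to day 6 (adjusted p = 5.0e-07), at 8 to 75 counts per library. *Klf8*, a CtBP-binding repressor, fell by 2.00 at day 2 (adjusted p = 3.1e-12) and was higher in clone 66 at each day (1.09, 1.09 and 1.70). *Klf1*, the erythroid factor, rose by 1.58 from day 2 to day 6 (adjusted p = 3.3e-10), from 6 to 15 counts to 19 to 43 counts. *Klf16* had a log2 fold change of 0.46 at day 6 against day 0 (adjusted p = 0.0046).

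Of the *Sp* genes, whose products bind GC boxes, *Sp1* fell by 0.44 at day 2 on the log2 scale (adjusted p = 6.8e-08) and rose by 0.35 from day 2 to day 6 (adjusted p = 6.1e-06). Its level was 110.6 to 194 CPM over all libraries of the 3 days. *Sp3* rose by 0.35 at day 2 (adjusted p = 0.0044) and *Sp4* fell by 0.40 (adjusted p = 0.0014). *Sp2* was not called between any pair of days. *Sp7*, the osteoblast factor osterix, and *Sp8* had at most 26 and 23 counts in a library. *Sp7* fell at day 2 (-2.01, adjusted p = 0.00053) and rose by day 6 (4.16, adjusted p = 1.9e-11), whereas *Sp8* rose (1.37, adjusted p = 5.3e-06) and then fell (-2.10, adjusted p = 2.1e-08). No gene of this list was called between genotypes at any day in edgeR's test, and none had an unadjusted p under 0.05. Exons of *Sp2* and *Sp3* overlap antisense genes, which makes their values uncertain.

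Co-factors and turnover enzymes of the family, a list of 14 genes, changed by smaller amounts. At day 2 against day 0, 7 rose and 2 fell, at day 6 against day 2, 3 rose and 7 fell, and at day 6 against day 0, 5 rose and 1 fell, beside 35.8% and 37.5%, 31.9% and 30.1%, and 32.9% and 35.4% of all genes tested higher and lower. *Kat2b*, an acetyltransferase, was the one gene with a change of at least 1 on the log2 scale between any pair of days. It went from 71.7 to 106.5 CPM at day 0 to 164.6 to 247 CPM at day 6 without overlap (1.19 ± 0.07, adjusted p = 1.1e-16). The changes of the other genes of this list lay between -0.78 (*Hdac1*, day 6 against day 2) and 0.71 (*Wdr5*, day 2 against day 0). Among the genes of the CtBP and Sin3 complexes, *Ctbp1*, *Ctbp2*, *Sin3a* and *Sin3b*, no absolute log2 fold change between days exceeded 0.38. These genes were named after their values were seen.

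A list of 15 known targets held 13 tested genes, and *Dlk1* and *Ucp1* were too low to test. At day 2 against day 0, 7 rose and 2 fell, at day 6 against day 2, 8 rose and 4 fell, and at day 6 against day 0, 11 rose and 2 fell. Of all genes tested, 35.8% were higher and 37.5% lower in the first of these comparisons, 31.9% and 30.1% in the next and 32.9% and 35.4% in the last. *Slc2a4*, the target of *Klf15*, had the timing of *Klf15*, at 0.560 to 2.55 CPM (median 1.56) at day 0, 9.62 to 15.9 CPM (median 12.8) at day 2 and 174 to 232 CPM (median 215) at day 6. Its log2 fold change was 2.96 ± 0.11 and 4.04 ± 0.10 in the 2 steps (adjusted p = 1.0e-22 and 1.2e-26). Targets of *Klf15* in amino acid and acetate metabolism differed in timing. *Prodh*, which begins proline breakdown, was not called at day 2 (-0.12, adjusted p = 0.48) and rose by 2.43 from day 2 to day 6 (adjusted p = 3.8e-16), as did *Acss2*, the cytosolic acetyl-CoA synthetase, with -0.04 (adjusted p = 0.70) and 1.62 (adjusted p = 1.9e-17). *Bcat2*, the mitochondrial branched-chain aminotransferase, rose by 3.07 at day 2 (adjusted p = 4.5e-14) and was not called between days 2 and 6 (-0.17, adjusted p = 0.49). *Pck1*, the gluconeogenic enzyme, had 0 counts in every library of day 0, 1 to 35 counts at day 2 and 248 to 691 counts at day 6, and *Lep*, the adipokine leptin, at most 1 count at days 0 and 2 and 48 to 142 at day 6.

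The adipogenic regulators of the list moved at day 2. *Cebpb*, a target of *Klf4*, rose by 2.85 at day 2 (adjusted p = 5.7e-20) and fell by 0.88 from day 2 to day 6 (adjusted p = 1.0e-07). *Klf4* itself was not called between the sampled days, and a passing rise before day 2 would not be seen. *Cebpa*, a target that *Klf3* represses, rose by 5.10 at day 2 (adjusted p = 1.0e-23) and fell by 0.57 from day 2 to day 6 (adjusted p = 0.00085). *Pparg*, a target of *Klf5* and *Klf15*, rose by 2.41 at day 2 and 0.38 from day 2 to day 6 (adjusted p = 2.2e-23 and 8.3e-05). *Adipoq*, which encodes adiponectin, went from 0.0432 to 5.39 CPM at day 0 to 67.5 to 1142 CPM at day 2 and 1295 to 3451 CPM at day 6. *C1qtnf12*, a secreted relative of adiponectin, had a log2 fold change of -0.57 at day 2 (adjusted p = 0.0015) and 2.57 from day 2 to day 6 (adjusted p = 4.6e-16). *Smad7*, the inhibitor of TGF-beta signalling that *Klf10* represses, fell by 1.03 at day 2 (adjusted p = 5.0e-06) and by 0.46 from day 2 to day 6 (adjusted p = 0.033).

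Across all 36 libraries the log2 levels of *Klf6* and *Klf7* had a Pearson correlation of 0.80, those of *Klf3* and *Klf7* 0.75 and those of *Klf3* and *Klf6* 0.73. *Klf10* and *Klf15* had 0.79, and *Klf13* and *Klf15* 0.62. The libraries of a day, clone or pool share much of this variation. After each of the 12 group means was subtracted, *Klf3* and *Klf6* had -0.65, *Klf3* and *Klf13* 0.85, *Klf3* and *Klf5* 0.77 and *Klf4* and *Klf13* 0.72, over the same 36 libraries, among which the replicate numbers are shared. For *Klf3* and *Klf6* the sign thus differed between and within groups.

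Of the 9375 genes whose mean log2 CPM was 3 or more, those most like each member over the 36 libraries were picked by their Pearson correlation. For *Klf15* they were *Arhgap29*, *Pfkl*, the liver-type phosphofructokinase, and *Slc2a4* (0.98, 0.98 and 0.98), with *Pfkl* at a median of 119, 283 and 1372 CPM on days 0, 2 and 6. *Klf6* was most like *Pkp2*, *Cdc42ep3* and *Arhgap18* (0.94 each), *Klf7* most like *Loxl4*, *Ccdc136* and *Mical1* (0.96 each) and *Klf3* most like *Cds2*, *Ppp1r18* and *Ddr1* (0.96, 0.95 and 0.95). Each of these 9 genes had its lowest median at day 2, such as *Loxl4*, a lysyl oxidase, at 81.7, 16.1 and 41.3 CPM. *Klf13* was most like *Tmem63b*, *Dhcr7* and *Tnip1* (0.96, 0.96 and 0.95) and *Klf10* most like *Dcxr*, *Stx6* and *Fam213a* (0.90, 0.88 and 0.87). The closest genes of *Klf11*, *Klf5* and *Klf4* had lower values: *Pip4k2c*, *Ccar2* and *Dtnb* for *Klf11* (0.85, 0.83 and 0.83), *Pum2*, *Ctcf* and *Ecpas* for *Klf5* (0.82, 0.82 and 0.80) and *Egln2*, *Camk1d* and *Lig1* for *Klf4* (0.78, 0.77 and 0.77).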

How the data were processed

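RNA sequencing was performed on 36 libraries (TruSeq Stranded Total RNA Gold). Per the labels and the study's methods, the authors aligned reads with STAR 2.7.0d to mm10 and deposited raw counts per gene of the GENCODE M21 annotation from featureCounts 1.6.2, with no use of strand. Groups came from the sample labels. Sources differ on whether replicates were technical or independent, so that p-values may measure technical spread only, and replicates differed by more than sampling noise (chi-square over its degrees of freedom at least 12.0).

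The counts were filtered (filterByExpr, 16723 genes kept), scaled by TMM and fitted in edgeR 4.0.16 (R 4.3.3, quasi-likelihood, the form of edgeR 3, the authors having named edgeR 3.24.3) with genotype and day as groups and a clone term, or with 12 groups for comparisons of clones. P-values were adjusted by Benjamini-Hochberg over all genes and called under 0.05. Standard errors were the absolute log2 fold change over the square root of the F value of the test. The 95% intervals used t quantiles with 29 degrees of freedom, or 24 for comparisons of clones. Both are approximate, and the coverage of the intervals was not checked. Correlations used a prior count of 2, and the test was checked on simulated data for recovered changes and false calls. CPM are TMM-scaled. The precision of low values is set by totals of 11351078 to 24349263 counts. *Rxra*WT and *Rxra*SA libraries of the same clone, day and number deviated together (correlation 0.18 to 0.93 in 18 of 18 pairs), so the numbers pair the genotypes. Across days the correlation passed 0.1 in 5 of 6 cases for each pair of days. Its means were 0.37 (days 0 and 2), 0.32 (0 and 6) and 0.47 (2 and 6). Deviations were thus partly shared across days as well. The main tests did not take the numbers as pairs, and the replicate block did. Alternatives were other filters, scalings, tests, models and samples, DESeq2 1.42.0 among them.

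The members and lists were chosen with earlier results of these data known. Named were the members, the rest of the family, cofactors and targets called with a log2 fold change of at least 1 between days, and the 3 most correlated genes of each member. Genes called by that rule but low in counts were given as counts.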

Additional observations from a re-analysis of the deposited data

Results flagged for a closer look

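In 54 sets of 6 libraries of a genotype and day, 5 had a library far from the others (Dixon's criterion, which chance meets in about 1 of 20 sets). *Klf3* was at 80.6 CPM in *Rxra*SA day 0 replicate 3 of clone 48, where the nearest library had 59.5 CPM. *Klf4* was at 11.2 CPM in *Rxra*WT day 6 replicate 2 of clone 66 (nearest 6.41 CPM). *Klf6* was at 121 CPM (nearest 143 CPM) and *Klf13* at 29.1 CPM (nearest 16.4 CPM) in the same library, *Rxra*WT day 0 replicate 3 of clone 66. *Klf15* was at 3.75 CPM in *Rxra*SA day 2 replicate 3 of clone 66 (nearest 2.48 CPM).

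The edgeR test of the difference itself called the clones different in the change of *Klf15* from day 0 to day 2, by 1.87 on the log2 scale. It also called that of *Klf10* from day 0 to day 6, by -0.81, clone 66 against clone 48. Each call was lost when any of several single replicate numbers of a clone was left out. The *Klf15* value rests on few counts at day 0, and clone cannot be told apart from pool.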

How the results depend on the processing

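Between days, 7 members were called at day 6 against day 0, 4 in clone 66 alone, 8 in clone 48 alone and 9 with library size alone. With the replicate block the counts of members called between days remained 5, 7 and 7, and those between genotypes 0 in every alternative. Between clones at day 0, 1 member was called, and 0 to 3 over all alternatives, with 1 to 3 when a replicate was left out. The replicate block called 3, but it compared the clones at number 1 alone. At days 2 and 6 the counts of 5 and 3 became 3 to 5 and 1 to 4 when a replicate was left out. For the difference between clones in the change from day 0 to day 2, 1 member was called, 2 with DESeq2 or library size alone, 3 with the replicate block and 0 to 2 without a replicate. From day 0 to day 6 it was 1, and 2 with DESeq2 and 0 to 2 without a replicate, and from day 2 to day 6 it was 0, and 1 with the replicate block and 0 to 1 without a replicate. The replicate block raised the genes called for the difference between clones in time from 1144 to 2248, 1033 to 2082 and 644 to 1369 (day 2 against 0, 6 against 2 and 6 against 0). It gave 3 genes, and no filter 5, for clone by genotype at day 0, where there were 0, and the block within each day gave 1 gene between genotypes at day 2. Leaving out a replicate gave 574 to 647, 537 to 559 and 316 to 415 in the settings that moved those 3 clone by time counts most. Medians by library size alone were 162 CPM for *Klf6* at day 0 and 51.7 CPM for *Klf10* at day 2. Of all values, 2578 were unchanged, which includes values called in neither setting and medians, which have no call. Another 37 lost a call and 29 gained one, and no called value changed sign. The cause was not tested. Few counts limit *Klf15* at day 0 and *Klf5* throughout.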
